A study of Mus musculus with 9 samples.

Results

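The genes followed here were 10 of mitochondrial protein quality control among the 55401 genes in the deposited count table, and all 10 were among the 16762 genes with enough counts to be tested. They were chosen by name. Hspd1, Hspe1, Hspa9, Dnaja3 and Trap1 encode chaperones of the mitochondrial matrix, Lonp1, Clpp, Clpx and Yme1l1 encode proteases or a protease subunit, and Atf5 encodes a transcription factor linked to mitochondrial stress. In hypoxia against control, Hspe1, Hspd1 and Atf5 rose by 2.73-fold to 6.58-fold, while Clpx, Trap1 and Dnaja3 fell to between 0.449 and 0.625 of the control level. Hspa9, Lonp1, Yme1l1 and Clpp stayed under the fold limit of 1.5. None of the 10 genes was called in hypoxia + rSRGN against hypoxia, where 3.13% of all genes tested were.

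The cells were primary neonatal mouse ventricular myocytes (NMVMs) of wild-type C57BL/6J mice, taken at 1 day of age. Each of the control, hypoxia and hypoxia + rSRGN groups had 3 libraries of poly(A)-enriched RNA. Control cells stayed at normal oxygen in DMEM with 10% FBS. Hypoxia cells spent 6 h in DMEM without glucose or serum in a sealed AnaeroPack chamber, and hypoxia + rSRGN cells received recombinant SRGN, the proteoglycan core protein serglycin, during the same 6 h. The labels give no dose of rSRGN. Oxygen, glucose and serum changed together, so their parts in any difference from control cannot be told apart. Nothing in the labels says that the replicates were separate cultures or isolations, so the p-values measure only the spread between these libraries, which may be technical.

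Libraries held 16583985 to 22781557 counts, and the 10 genes had 395 to 21280 counts per library. The summed level of 14 cardiomyocyte markers was 50955 to 62425 CPM, the count scaled to a common library size, in control, 4197 to 6514 in hypoxia and 8390.5 to 9012 in hypoxia + rSRGN, and all 14 fell in hypoxia against control, where 25.1% of all genes tested were called lower and 26.4% higher. The sum of 9 fibroblast markers was 8828 to 10409 CPM in control, 17353 to 20153 in hypoxia and 19247 to 19816 in hypoxia + rSRGN, and 6 of the 9 rose. Among the markers of other cells, 6 of 8 endothelial and 8 of 10 macrophage markers fell, and of the macrophage markers Cx3cr1 rose, from 0.285 to 114 CPM. Of the fallen macrophage markers, C1qa, C1qb, C1qc and Adgre1 were low already in control (2.70 to 4.25 CPM), while Lyz2 fell from 194 to 15.3 CPM. Of 5 mural cell markers 1 fell, near the share of all genes, and 4 were not called, and their sum was 277 to 347 CPM in control, 251 to 263 in hypoxia and 347 to 366 in hypoxia + rSRGN. No marker of these lists was at 0 in all libraries of a group. The cardiomyocyte label therefore held by its markers in the control libraries, whereas in the hypoxic libraries the fibroblast sum exceeded the cardiomyocyte sum. In bulk RNA, fewer cells of a type and less RNA per cell cannot be told apart, and the part of this shift in the changes given here was not tested.

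Most mitochondrial proteins are made in the cytosol and threaded unfolded into the matrix. There the HSP70 protein mortalin (Hspa9), working with the J-domain protein TID1 (Dnaja3), receives the incoming chain, and the barrel-shaped chaperonin (Hspd1) with its lid (Hspe1) folds it. TRAP1 is the mitochondrial member of the HSP90 family. Chains that fail to fold are degraded by the proteases LON (Lonp1) and ClpXP, in which ClpX unfolds the substrate and ClpP cuts it, or at the inner membrane by YME1L. When unfolded proteins collect in mitochondria, cells can raise the nuclear genes for these proteins, a program called the mitochondrial unfolded protein response. Heart muscle is rich in mitochondria and depends on this upkeep.

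Hspd1 and Hspe1 lie head to head on chromosome 1, Hspd1 on the minus strand (chr1:55077835-55088243, GRCm38) and Hspe1 on the plus strand (chr1:55088132-55091307). Their 5′ ends overlap, and this region is shown because these genes had the largest rises of the 10. In RefSeq, the start site of Hspe1 is 95 bases from one Hspd1 start site and 216 bases from the other. The promoter of Hspe1, here a window of 300 bases around its RefSeq start site (chr1:55087898-55088197, plus strand, GRCm38.p6), is printed with a heat shock element in capitals.
Hspe1: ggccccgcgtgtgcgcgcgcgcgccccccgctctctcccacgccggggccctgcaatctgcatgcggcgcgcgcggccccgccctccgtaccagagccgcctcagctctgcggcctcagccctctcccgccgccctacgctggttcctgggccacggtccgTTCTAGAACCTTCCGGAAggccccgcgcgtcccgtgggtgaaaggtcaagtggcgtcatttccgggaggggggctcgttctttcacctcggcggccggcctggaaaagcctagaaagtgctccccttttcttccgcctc
A heat shock element is a run of inverted units of the letters GAA and TTC, each followed by a pair of other bases, and it is the known binding site of heat shock factors. The 18 bases in capitals hold 2 overlapping matches to the form with 3 units, TTCNNGAA followed by any 2 bases and TTC, or its reverse complement. They lie 89 to 72 bases before the Hspe1 start site and 144 to 127 bases before the inner Hspd1 start site. From the outer Hspd1 start site they lie 167 to 184 bases downstream, and all 18 are within an annotated exon of Hspd1. The form with 3 units was present on either strand in 198 of 32817 mouse promoters of the same length (0.603%). A match of letters is a description of the window and no measure of binding.

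**Figure D1:**
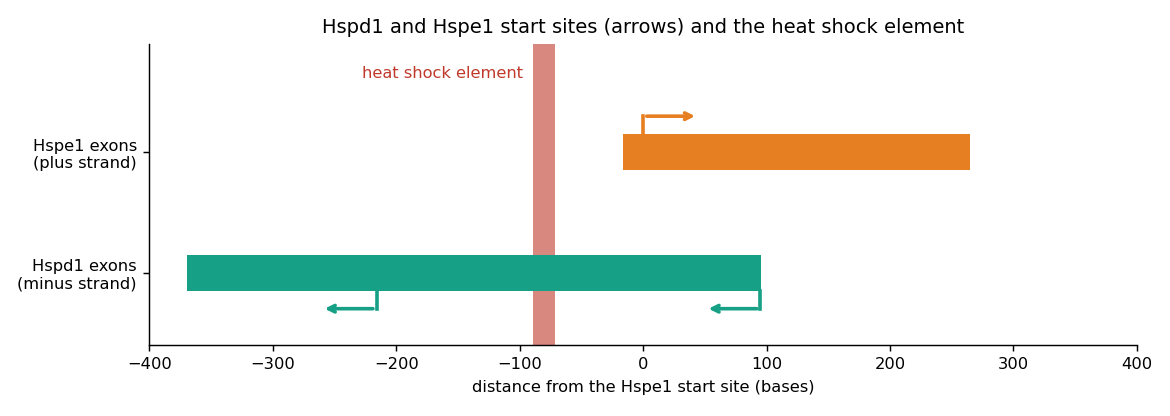
The horizontal axis gives the distance in bases from the Hspe1 start site, bars are annotated exons of Hspe1 (plus strand) and Hspd1 (minus strand), arrows are RefSeq start sites with their direction, and the band is the heat shock element. The band lies 89 to 72 bases before the Hspe1 start and between it and the Hspd1 start that is 216 bases away.

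Among the other genes with a promoter entry, none held the form with 3 units, and Hspa9 had no entry. The first Atf5 promoter (chr7:44816609-44816908, minus strand, GRCm38.p6) held the shorter form TTCNNGAA, a palindrome found in 8.51% of all promoters, at position -191 from the start site. It is printed because Atf5 was the third gene that rose, with the shorter form in capitals.
Atf5: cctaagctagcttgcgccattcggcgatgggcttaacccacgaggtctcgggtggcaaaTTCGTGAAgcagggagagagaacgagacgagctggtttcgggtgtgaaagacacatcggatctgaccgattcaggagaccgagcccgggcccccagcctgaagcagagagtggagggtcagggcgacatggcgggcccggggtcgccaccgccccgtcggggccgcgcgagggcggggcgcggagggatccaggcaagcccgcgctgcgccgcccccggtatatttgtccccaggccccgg
Clpp also held TTCNNGAA, at position 34 from its start site. The C/EBP-ATF response element TGATGNAA, present in 3.97% of promoters, was in none of the 11 entries that cover 9 of the 10 genes. The cAMP response element TGACGTCA, in 1.79% of promoters, was in that of Trap1, at position -47, and the E-box CACGTG, in 7.15%, was in those of Lonp1 and the outer Hspd1 start. The other motifs searched were GAANNTTC (7.86% of promoters), the GC box GGGCGG (35.6%), the CCAAT box (37.4%) and the NRF1 site, a palindrome whose left part is GCGCA (0.966%). No match says only that these letters are not in this window.

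The first comparison asks how the cultures' RNA differed after 6 h without oxygen, glucose and serum. Of the 10 genes, 3 were called higher and 3 lower, which means a Benjamini-Hochberg adjusted p below 0.05 in edgeR's quasi-likelihood test together with a change of 1.5-fold or more. Of all genes tested, 51.6% were called, 26.4% higher and 25.1% lower, so the 6 of 10 called was near the background. The median log2 fold change was -0.26 over the 10 genes and 0.05 over all genes tested. For 8 of the 10 the hypoxia and control libraries did not overlap, as for 73% of all genes tested. Without the fold limit, 9 of the 10 passed the adjusted p, where 70.9% of all genes did.

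Of the chaperonin genes, Hspe1, the lid, had the larger change. Its level was 80.0, 82.3 and 84.7 CPM in the control libraries, 572, 521 and 533 CPM in hypoxia and 527, 587 and 512 CPM in hypoxia + rSRGN. All 6 hypoxic libraries were far above all 3 control libraries, and the hypoxic groups overlapped. In hypoxia against control its log2 fold change was 2.72 (SE 0.0777, n = 3 per group, adjusted p = 7.81e-18), or 6.58-fold, which ranked 531 from the top among 16762 genes.

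Hspd1, the chaperonin barrel, had 274, 243 and 259 CPM in control, 886, 921 and 830.1 CPM in hypoxia and 910.2, 1025 and 942 CPM in hypoxia + rSRGN. Again every hypoxic library exceeded every control library. In hypoxia its log2 fold change was 1.77 (SE 0.0770, adjusted p = 5.46e-15), or 3.40-fold, and ranked 1192.

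The genes whose products act before and beside the chaperonin did not follow it. Hspa9 (chr18:34937414-34954357, minus strand), which encodes mortalin, had 562, 530.0 and 548 CPM in control, 427, 502 and 432 CPM in hypoxia and 491, 504 and 474 CPM in hypoxia + rSRGN. The hypoxia libraries were all below the control libraries, but by less than the fold limit, with a log2 fold change of -0.27 (SE 0.0741, adjusted p = 0.00279).

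Dnaja3 (chr16:4639989-4707695, plus strand), the J-domain partner of mortalin, fell. It had 88.5, 82.3 and 89.2 CPM in control, 55.3, 51.7 and 55.5 CPM in hypoxia and 54.5, 51.0 and 55.7 CPM in hypoxia + rSRGN. This was a log2 fold change of -0.68 (SE 0.0748, adjusted p = 4.11e-08). Trap1 (chr16:4039971-4077827, minus strand), of the HSP90 family, fell further. Its 133, 132 and 128 CPM in control compare with 70.9, 61.1 and 66.3 CPM in hypoxia and 62.8, 62.2 and 65.8 CPM in hypoxia + rSRGN. The log2 fold change was -0.99 (SE 0.0735, adjusted p = 6.03e-11), to 0.505 of the control level, and neither gene had a hypoxic library within the control range.

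**Figure D2:**
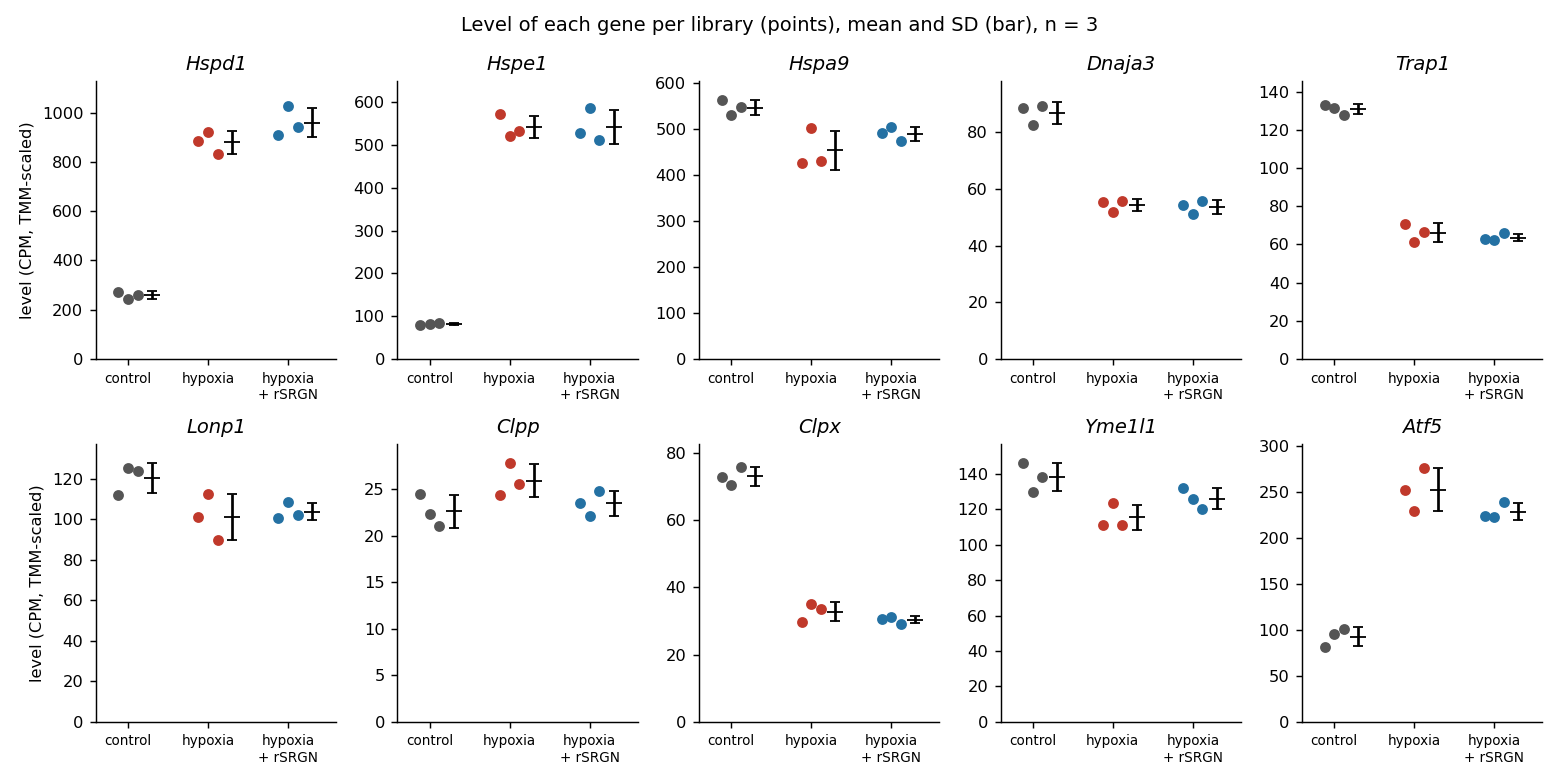
Each panel is 1 gene, with the level in TMM-scaled CPM on a vertical axis that starts at 0 and the 3 groups on the horizontal axis. Points are libraries and bars are the mean with SD (n = 3). Hspe1 rises from 82.3 to 542 CPM and Hspd1 from 259 to 879 CPM between control and hypoxia, Clpx falls from 73.1 to 32.8 CPM, and the hypoxia and hypoxia + rSRGN points overlap in every panel.

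Of the protease genes, 1 of 4 was called, where 51.6% of all genes tested were. Clpx (chr9:65294260-65330658, plus strand), the unfoldase of ClpXP, had 73.0, 70.4 and 75.8 CPM in control, 29.7, 35.2 and 33.7 CPM in hypoxia and 30.6, 31.3 and 29.3 CPM in hypoxia + rSRGN. All 6 hypoxic libraries were below all 3 control libraries. Its log2 fold change was -1.15 (SE 0.0857, adjusted p = 5.75e-11).

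Clpp (chr17:56990305-56996188, plus strand), the peptidase that Clpx feeds, had 24.5, 22.3 and 21.1 CPM in control, 24.3, 27.9 and 25.5 CPM in hypoxia and 23.5, 22.1 and 24.8 CPM in hypoxia + rSRGN. The groups overlapped. With a log2 fold change of 0.19 and a 95% interval of -0.01 to 0.40 (adjusted p = 0.089), a change was not detected, and the whole interval was under the fold limit.

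Lonp1 (chr17:56614297-56626887, minus strand), the soluble matrix protease, had 112, 125 and 124 CPM in control, 101, 112 and 89.8 CPM in hypoxia and 101, 108 and 102 CPM in hypoxia + rSRGN. The second hypoxia library lay within the control range. The log2 fold change was -0.25 (SE 0.0812, adjusted p = 0.00854), under the fold limit, and without the third hypoxia library it was -0.18 with an adjusted p of 0.0646.

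Yme1l1 (chr2:23156369-23199260, plus strand), of the inner membrane, had 146, 130.1 and 138 CPM in control, 111, 124 and 111 CPM in hypoxia and 132, 126 and 120.0 CPM in hypoxia + rSRGN. The log2 fold change was -0.26 (SE 0.0742, adjusted p = 0.00365), also under the fold limit. The hypoxia libraries were below the control libraries, while those of hypoxia + rSRGN overlapped them.

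Atf5 (chr7:44812256-44816658, minus strand) encodes a basic leucine zipper factor related to ATF4, which can take part in the mitochondrial unfolded protein response. It had 81.7, 95.4 and 101 CPM in control, 253, 229 and 276 CPM in hypoxia and 224, 223 and 239 CPM in hypoxia + rSRGN. All hypoxic libraries exceeded the control libraries. Its change of 1.45 on the log2 scale (SE 0.0852, adjusted p = 1.01e-12) was 2.73-fold.

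Levels of different genes were compared per kilobase of exon. In control libraries Hspa9 had the highest level, 127 CPM per kilobase, before Hspd1 with 97.9, Hspe1 with 55.9, Trap1 with 50.9 and Atf5 with 46.5, and the libraries of the last pair overlapped. By exon length the other 5 genes lay between 17.3 (Yme1l1) and 27.5 CPM per kilobase (Lonp1). In hypoxia Hspe1 with 368 and Hspd1 with 333 CPM per kilobase came first, before Atf5 with 127 and Hspa9 with 105, whose libraries overlapped, and Clpx was last with 9.40. In hypoxia + rSRGN Hspe1 had 368 and Hspd1 363 CPM per kilobase. This order depends on the length used. With principal transcripts, control Hspe1 and Hspd1 were at 106 and 107, Yme1l1 was at 29.4 and Clpp was lowest with 23.0 CPM per kilobase. In hypoxia Hspa9 (149) then came before Atf5 (142), and in hypoxia + rSRGN Hspe1 (700.1) was above Hspd1 (396).

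The ratio of Hspd1 to Hspe1, in CPM per kilobase, was 1.64 to 1.91 in the control libraries, 0.864 to 0.986 in hypoxia and 0.963 to 1.03 in hypoxia + rSRGN. The barrel transcript thus fell relative to that of the lid, to 0.517 of the control ratio. For Clpx to Clpp the ratio was 1.04 to 1.26 in control, 0.427 to 0.461 in hypoxia and 0.413 to 0.495 in hypoxia + rSRGN. For Hspa9 to Hspd1 it was 1.26 to 1.34 in control, 0.296 to 0.334 in hypoxia and 0.302 to 0.331 in hypoxia + rSRGN.

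In all 3 ratios no hypoxic library overlapped a control library. The exact two-sided permutation test gave p = 0.1 for each of the 6 comparisons with control, which is the smallest p that 3 against 3 libraries allow, so this test cannot reach the threshold (0.15 after Benjamini-Hochberg adjustment over 9 comparisons). For hypoxia + rSRGN against hypoxia the exact permutation p was 0.3, 0.8 and 0.9 for the 3 ratios. The size of a ratio depends on the lengths used. With the principal transcript of each gene in place of all its exons, the mean ratio of Hspd1 to Hspe1 was 1.00 in control, 0.519 in hypoxia and 0.566 in hypoxia + rSRGN.

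**Figure D3:**
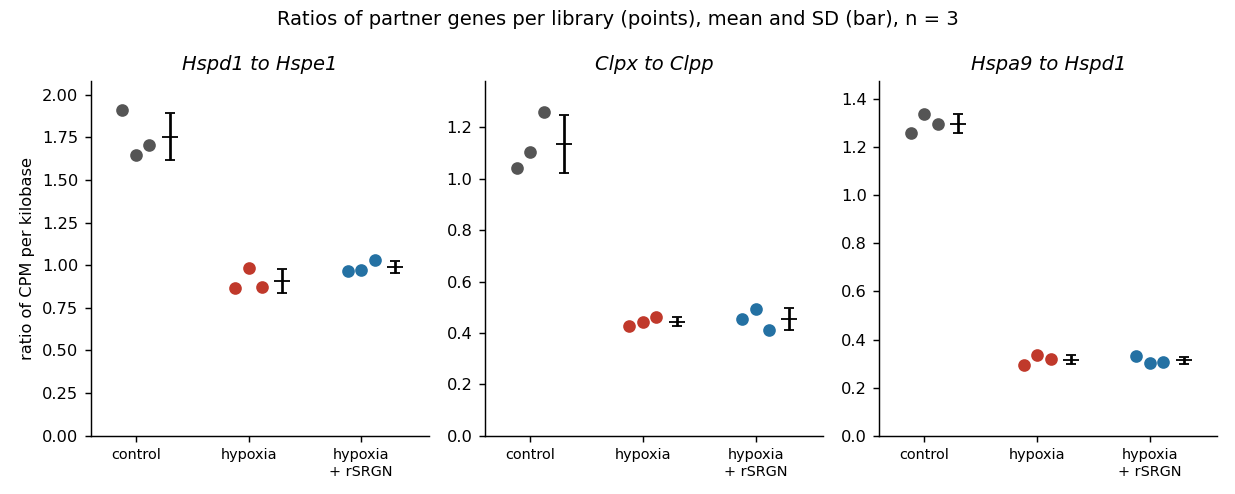
Each panel is the ratio of a pair of genes in CPM per kilobase of exon on a vertical axis that starts at 0, for each library (points) with mean and SD (bars, n = 3). The mean Hspd1 to Hspe1 ratio falls from 1.75 to 0.906, Clpx to Clpp from 1.14 to 0.443 and Hspa9 to Hspd1 from 1.30 to 0.316 between control and hypoxia.

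The second comparison, hypoxia + rSRGN against hypoxia, asks what the added protein changed in hypoxic cells. In edgeR's quasi-likelihood test 0 of the 10 genes were called. Of all genes tested, 3.13% were called, 2.27% higher and 0.859% lower, so 0 of 10 is near this background. These were 525 genes, and 321 without the third hypoxia library. No gene of the 10 passed the adjusted p without the fold limit (16.6% of all genes) or had an unadjusted p below 0.05 (29.4% of all genes). DESeq2 also called 0, beside 3.22% of all genes, and gave 2 genes, Hspd1 and Yme1l1, an unadjusted p below 0.05, beside 27.7% of all genes. The groups overlapped for all 10 genes, whereas they did not for 32% of all genes tested. The log2 fold changes ran from -0.14 to 0.13.

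For Hspe1 the 95% interval of the log2 fold change was -0.15 to 0.15, and for Hspd1, with an estimate of 0.13, it was -0.03 to 0.28 (adjusted p = 0.273). The lowest estimate was that of Atf5, at -0.14 with an interval of -0.32 to 0.03 (adjusted p = 0.257). Clpp had the widest interval, -0.35 to 0.07. For none of the 10 genes did the interval reach the fold limit, a log2 fold change of 0.585, in either direction. Smaller differences, within these bounds, are not shown to be absent. In the same comparison 12 of the 14 cardiomyocyte markers rose (median log2 fold change 0.78 over the list), beside 2.27% of all genes. Of the other cell markers Kdr (endothelial) rose by 0.93 and Rgs5 (mural) by 0.78 on the log2 scale, Tcf21 (fibroblast) fell by 0.76, and no macrophage marker was called.

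The third comparison, hypoxia + rSRGN against control, shares the control libraries with the first and the rSRGN libraries with the second, so its values are not independent of either. Again 3 genes were called higher and 3 lower, where 48.8% of all genes tested were called, 24.1% higher and 24.7% lower. Without the fold limit, 7 of the 10 passed the adjusted p, beside 68.6% of all genes. The log2 fold change was 2.72 for Hspe1 (adjusted p = 1.26e-17), 1.89 for Hspd1 (2.86e-15) and 1.30 for Atf5 (7.39e-12) by edgeR's quasi-likelihood test. Those of Clpx, Trap1 and Dnaja3 were -1.27, -1.04 and -0.69. The 4 genes not called were Lonp1 with -0.21, Hspa9 with -0.16, Yme1l1 with -0.13 and Clpp with 0.05.

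**Figure D4:**
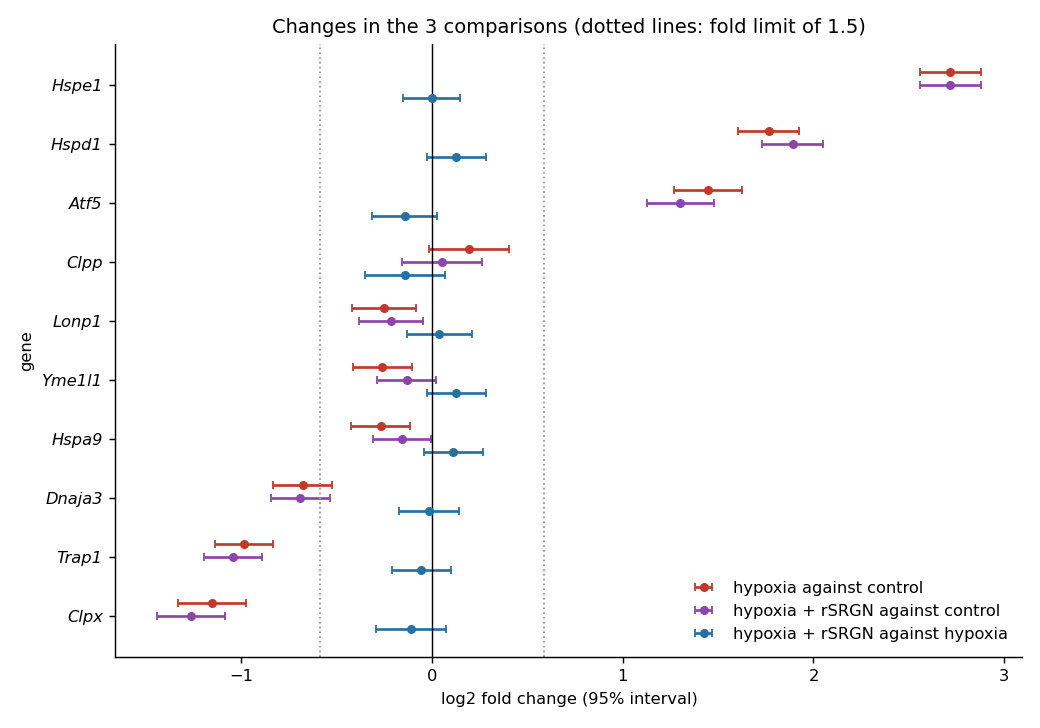
The horizontal axis is the log2 fold change of each gene with its 95% interval in the 3 comparisons, and dotted lines mark the fold limit of 1.5. Hspe1, Hspd1 and Atf5 lie right of the limit and Dnaja3, Trap1 and Clpx have estimates left of it in both comparisons with control, while no interval of hypoxia + rSRGN against hypoxia reaches a limit.

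Related genes were grouped by role, and their counts stand beside the 26.4% of all genes called higher and 25.1% called lower. Of 10 further partners of the mitochondrial chaperones, 1 rose and 2 fell in hypoxia against control (median log2 fold change -0.26). Hscb, a co-chaperone of iron-sulfur protein assembly, rose by 0.93 on the log2 scale, while the disaggregase Clpb fell by 1.13 and Dnajc15, a J-domain protein of the import motor, fell by 1.08. Of 17 further mitochondrial proteases and their scaffolds 0 rose and 5 fell, among them Afg3l2, a subunit of the matrix-facing inner membrane protease (log2 fold change -1.19), and the stress-activated protease Oma1 (-1.12). Htra2, Stoml2 and Pitrm1 of this list had positive log2 fold changes of 0.52, 0.48 and 0.39 under the fold limit. Their adjusted p by edgeR was 3.16e-05, 0.000111 and 0.000321. Afg3l1 and Pmpca had negative ones of -0.47 and -0.39, also under the limit (adjusted p 8.9e-06 and 0.000241 by edgeR). The groups did not overlap for these genes, nor for 73% of all genes tested. Of 17 genes of protein import 16 were tested, and 0 rose and 5 fell, the receptor gene Tomm70a by 1.04 and Timm10, a small chaperone of the intermembrane space, by 0.84 on the log2 scale.

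The 12 genes of mitochondrial metabolism, channels and DNA upkeep moved more. Of these 11 fell (median log2 fold change -1.67). Uqcrc1, a core subunit of respiratory complex III, had a log2 fold change of -2.17. Each of the 10 chaperone, protease and factor genes was above this median, and Clpx, the lowest of them, was at -1.15. The mitochondrially encoded share of the counts was 8.3 to 9.51% in control, 5.28 to 5.77% in hypoxia and 4.82 to 5.64% in hypoxia + rSRGN.

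Outside the mitochondria, 12 of 16 cytosolic heat shock genes rose and 0 fell (median log2 fold change 1.37). The inducible HSP70 genes Hspa1a and Hspa1b rose by 10.34 and 9.30 on the log2 scale, from 2.85 and 8.48 CPM in control. They are near-identical copies, so the division of fragments between them is uncertain. Hsf1, the main heat shock factor, rose by 0.94. Of 15 chaperone genes of the endoplasmic reticulum 11 rose and 0 fell, with a median of 0.80, among them Creld2 by 1.40 and the disulfide isomerase gene Pdia3 by 1.31.

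Of 10 genes of stress signalling 4 rose and 2 fell. Ddit3, which encodes the pro-apoptotic factor CHOP, rose by 1.79 and Cebpb, a partner of it, by 1.52, beside Atf4 by 1.39 and Hsf1. Sirt3, the mitochondrial deacetylase, fell by 1.38 and Dele1, which relays mitochondrial stress to the cytosol, by 1.13. Of 18 targets of the integrated stress response, the ATF4 program, 13 rose and 2 fell (median log2 fold change 1.29). Atf3 rose by 5.21 and the secreted factor gene Gdf15 by 2.35, while the lipoprotein receptor gene Vldlr fell by 1.44 and Ddit4, an inhibitor of mTORC1 signalling, by 1.08.

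In hypoxia + rSRGN against hypoxia 0 genes of these 8 lists were called by edgeR's quasi-likelihood test. The list medians ran from -0.13 for protein import to 0.15 for the cytosolic heat shock genes, beside -0.03 for all genes.

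**Figure D5:**
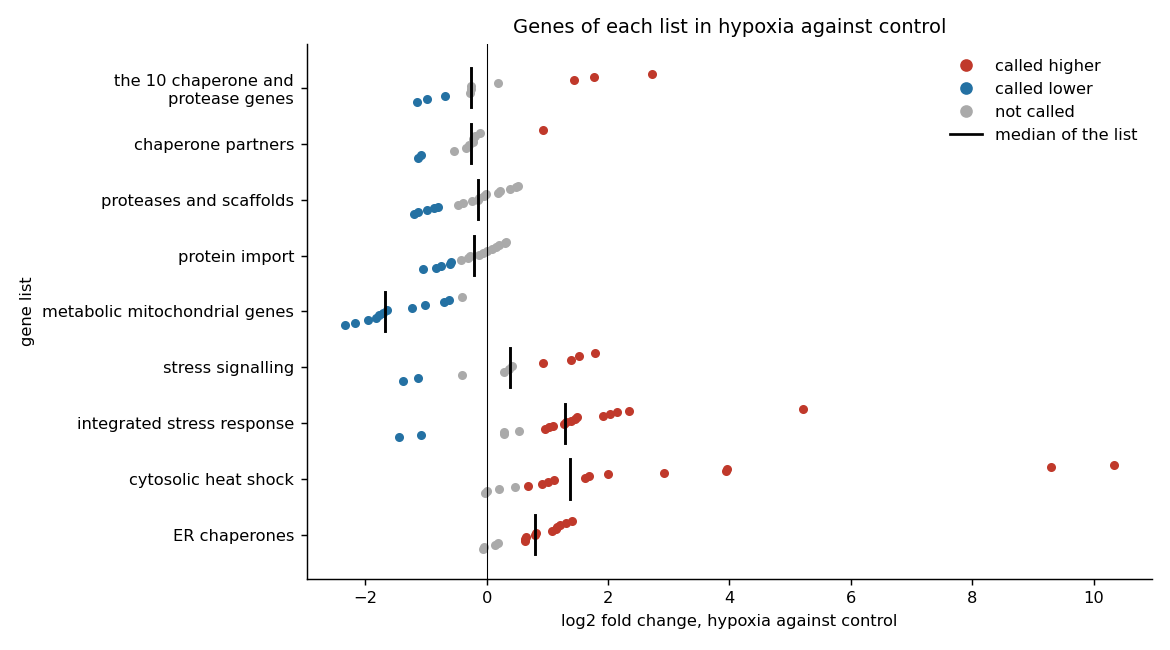
Each row is a list of genes, each point is the log2 fold change of 1 gene in hypoxia against control, coloured by call, and the vertical bar is the median of the list. The medians are -0.26 for the 10 chaperone and protease genes, -1.67 for metabolic mitochondrial genes, 1.37 for cytosolic heat shock genes and 1.29 for targets of the integrated stress response.

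The genes closest to 3 of the 10 in pattern were taken as those with the highest Pearson correlation of log2 CPM over the 9 libraries, among 9749 genes with a mean of at least 10 CPM. These libraries form separate groups for most of the genes, so r describes mainly the contrast with control. For Hspd1 they were Lipg, Hsph1, Zfp36l1, Gm48565 and Emp1, with r of 0.9973 to 0.9979, and Hsph1 is itself a cytosolic heat shock gene. For Atf5 they were Abcc5, Adamtsl5, Serpinh1, Sdf4 and Mcm2 (0.9963 to 0.9975). For Lonp1 they were Peg13, Add1, Tpd52, Ano8 and Mrrf (0.935 to 0.9573). Within the 10 genes, r was 0.995 between Hspd1 and Hspe1, 0.951 between Hspa9 and Yme1l1, and -0.451 between Clpx and Clpp.

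Some fragments of these genes may be assigned elsewhere. The 7 named copies of Hspe1 together held 2.23 to 5.61% as many counts as Hspe1 itself, the 5 copies of Hspd1 held 0.83 to 2.14%, and the copy of Hspa9 at most 0.134%. The copy Hspd1-ps3 also rose in hypoxia against control, by 0.99 on the log2 scale (adjusted p = 8.33e-05). The counting used no strand, and 112 exon bases are shared by Hspd1 and Hspe1 on opposite strands, which is 4.24% of the exon bases of Hspd1 and 7.6% of those of Hspe1. Dnaja3 shares 153 exon bases with Coro7 and 160 with Vasn, Trap1 shares 54 with Dnase1, and Atf5 shares 82 each with Nup62 and Il4i1. Srgn itself, the mouse gene of the added protein, had 0.447, 0.339 and 0.470 CPM on average in control, hypoxia and hypoxia + rSRGN and was too low to be tested.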

How the data were processed

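For each of 9 NMVM libraries the authors deposited raw fragment counts by gene, as whole numbers. Per the file header they were made with featureCounts 2.0.1 (paired-end, exons, GENCODE mouse release 25, GRCm38, no strand option), and the submitters' processing notes name HISAT2 and mm10. The paper supplied for reading does not describe these cultures. All 9 sample columns were used and 0 were left out. Groups and replicate numbers came from the sample titles and treatment labels.

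The fit was made with edgeR 4.0.16 in R 4.3.3 (filterByExpr, TMM scaling, 1 mean per group over all 9 libraries, quasi-likelihood test, Benjamini-Hochberg adjustment over all genes tested). CPM values are TMM-scaled. Calls needed both an adjusted p under 0.05 and a 1.5-fold change or more. Intervals are 95% intervals from the fit. The step was tested on simulated data in which few genes changed, with directions drawn at random. It was not tested where as many genes change as in hypoxia against control. Alternatives were DESeq2 1.42.0, RLE scaling or none, other count filters and call limits, fits of 2 groups only, the replicate block, a fit lacking mitochondrially encoded and heat shock genes, counts of copies added, and leaving out each library. Levels per kilobase used all exon bases, with principal transcripts of GENCODE release 21 (GRCm38) as an alternative. Promoters came from RefSeq (GRCm38.p6) and figures from matplotlib 3.10.9.

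The genes named were the 10 chosen, the 2 largest rises and falls among called genes of each list, overlapping or copied genes, Srgn, and the 5 genes most like Hspd1, Lonp1 and Atf5. Some genes under this rule are not reported here. Atf4, Hsf1, Htra2, Stoml2, Pitrm1, Afg3l1, Pmpca and the genes named for cell markers or for DESeq2 p-values were added after their values were seen. The 10 genes and all lists were chosen with earlier results of these data known. Replicates of a group differed by more than sampling noise (chi-square per degree of freedom 3.63 to 13.1).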

Additional observations from a re-analysis of the deposited data

How the results depend on the processing

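Over 20 alternative settings, the number of the 10 genes called stayed at 6, 0 and 6 in the 3 comparisons, except without a fold limit, where it was 9, 0 and 7 (beside 70.9%, 16.6% and 68.6% of all genes), with Hspa9, Lonp1 and Yme1l1 added in hypoxia against control and Lonp1 added in hypoxia + rSRGN against control. Of 600 values of single genes, 575 kept their direction and their side of the threshold, 4 passed it only without a fold limit and 21 changed sign. No called value changed sign, and no setting called a gene in hypoxia + rSRGN against hypoxia. The labels do not say whether the replicate numbers pair the libraries. Deviations of same-numbered libraries from their group means had correlations of -0.0374 to 0.0215, which cannot decide whether they shared an isolation. The fit with the replicate number as a block called 6, 0 and 6 genes.

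The sign changes were all near 0. In hypoxia + rSRGN against hypoxia the log2 fold change of Hspe1 was 0.0284 with DESeq2 and 0.0284 with RLE scaling, 0.0119 without a filter, 0.0130 with at least 10 counts in every library, 0.0158 with only the groups compared, 0.00949 without mitochondrially encoded and heat shock genes and 0.00203 with copies added. That of Dnaja3 was 0.0146 with DESeq2, 0.0148 with RLE scaling and 0.00235 with only the groups compared. With each library left out in turn, the ranges were -0.0596 to 0.0494 for Hspe1, -0.0449 to 0.0248 for Dnaja3 and -0.0372 to 0.123 for Lonp1, whose sign changed without the third hypoxia library, and, in hypoxia + rSRGN against control, -0.00431 to 0.106 for Clpp, whose sign changed without the third control library. Hspa9 reached an adjusted p of 0.036 by edgeR in hypoxia + rSRGN against hypoxia without the second hypoxia library, at a log2 fold change of 0.19, under the fold limit.

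Lengths of principal transcripts, an alternative chosen after seeing the data, gave ratios of Hspd1 to Hspe1 of 1.00, 0.519 and 0.566 and of Hspa9 to Hspd1 of 1.68, 0.410 and 0.407 in control, hypoxia and hypoxia + rSRGN. A length rescales a ratio alike in all libraries, so the changes between groups are the same. Over all genes, calls in hypoxia + rSRGN against hypoxia numbered 525, but 321 without the third hypoxia library, 899 with unadjusted p and 2790 without a fold limit, and 72.57% of them were higher by TMM against 81.48% by DESeq2.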

Other observations

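Grouping all genes by promoter letters was added after seeing the data and is a description without a test. Of the tested genes, 69 had the heat shock element with 3 units in a RefSeq promoter of 300 bases, and 39.1% of them were called higher and 17.4% lower in hypoxia against control. Hspd1, Hspe1 and Hsph1 are among the genes with the element, so these shares are not independent of the results above. Of 11617 tested genes with a promoter entry but without this element, 23.3% were called higher and 25.9% lower. For the C/EBP-ATF response element TGATGNAA, which no promoter entry of the 9 genes searched held, 33% of 318 tested genes were higher and 25.2% lower, against 23.1% and 25.9% of those without it. For the shorter form TTCNNGAA, held by promoters of Hspd1, Hspe1, Atf5 and Clpp, 27.1% of 968 tested genes were higher and 24.5% lower, against 23.1% and 26% of those without it.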
